A study of Mus musculus with 26 samples.

Results

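The genes described here encode the proteins of the cytosolic ribosome. They were taken from the deposited expression table by name, as the lines of the Rpl and Rps series (with their a, x and l variants) together with Rpsa, Rplp0, Rplp1 and Rplp2, without names that mark a pseudogene. The rule found 81 lines, all with values in every library, of 25146 gene lines with values in every library. Of these, 49 belonged to the large subunit and 32 to the small subunit. Members with names outside the pattern (such as Fau and Gnb2l1) were kept apart and are given near the end.

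The 26 libraries were mouse 3′ RNA-seq, amplified from 1 ng of RNA, in 13 groups of 2 replicates from 4 lineages. Intestinal epithelium (IE) was sorted at E16.5 on GFP and EPCAM, and at P3 and P14 on EPCAM alone. Photoreceptor precursors (PRP) of the retina were sorted at P0 on GFP, at P4 as GFP+CD73- and as CD73+ cells, and at P6 and P10 as CD73+ cells. B cells were sorted on B220 from mice aged 8 to 10 weeks. Blasts (GFP-, CD138-), pre-plasmablasts (prePB; GFP+, CD138-) and plasmablasts (PB; GFP+, CD138+) were sorted from purified B cells after 3 days with LPS at 10 ng/mL and IL-4 at 2 ng/mL. All of these groups carried a homozygous EGFP knock-in at the N terminus of BLIMP1 on C57BL/6, so GFP reports BLIMP1, a transcriptional repressor used in each lineage, and no group with untagged BLIMP1 was compared. The primordial germ cell-like cells (d2 PGCLC) were a C57BL/6 and 129 line with Blimp1-mVenus, stella-ECFP and Rosa26-rtTA. They were sorted for the mVenus reporter on day 2 of culture with BMP4 and BMP8A, each at 500 ng/mL, together with EGF at 50 ng/mL, SCF at 100 ng/mL and LIF at 1000 U/mL. Whether the 2 replicates of a group were separate animals or cultures is not labelled. A p-value therefore measures the spread between these libraries, which may be technical.

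Each ribosome carries 1 copy of nearly every one of these proteins, so cells make them in matched amounts, and much of that matching happens after transcription. Their mRNAs are short, stable and abundant, and most begin with a run of pyrimidines directly at the 5′ end (the 5′ terminal oligopyrimidine, or TOP, motif), through which mTORC1 and LARP1 control how much of the mRNA is translated. The mRNA share measured here is thus the amount of message and not the rate at which ribosomes were made. Growing and dividing cells usually hold more of it than cells that have stopped dividing.

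RefSeq promoter sequences were matched for 61 of the 81 members. Windows around the annotated start are shown because the TOP motif of the family lies there, for the members whose level ranged most over the groups (Rpl10, Rps27, Rps12, Rpl39, Rpl36a), for the first annotated start of Rpl10a, whose level ranged least, and for 3 members in wide use as reference genes. Each line runs 5′ to 3′ on the strand of the gene, from 15 bases before the annotated start to 15 bases from it on, in GRCm38.p6, and capitals mark the longest run of C or T in that window.
Rpl10 (chrX:74270801-74270830, plus strand): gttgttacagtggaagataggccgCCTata
Rps27 (chr3:90213634-90213663, minus strand): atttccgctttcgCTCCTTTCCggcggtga
Rps12 (chr10:23787195-23787224, minus strand): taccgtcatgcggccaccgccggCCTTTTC
Rpl39 (chrX:37085208-37085237, minus strand): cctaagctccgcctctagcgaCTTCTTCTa
Rpl36a (chrX:134585639-134585668, plus strand): gtgcacccaggcaccgcctataaaCTTCCg
Rpl10a (chr17:28328456-28328485, plus strand): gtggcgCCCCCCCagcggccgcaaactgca
Rplp0 (chr5:115559452-115559481, plus strand): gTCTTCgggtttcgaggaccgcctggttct
Rpl13a (chr7:45128731-45128760, minus strand): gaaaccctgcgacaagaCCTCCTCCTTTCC
Rps18 (chr17:33955651-33955680, minus strand): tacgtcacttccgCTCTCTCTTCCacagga

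A run of at least 8 consecutive C or T on the gene's strand, touching the 10 bases before or the 10 bases after the annotated start, was present in 29 of 73 annotated starts of the members (39.7%). Among the 32778 starts of all other genes in the table, 4468 held one (13.6%). Rps18, Rps27 and Rpl13a carry such runs across or next to the start. Rpl39 and Rps12 carry runs of 8 and 11 bases that begin within the 10 bases after it, that of Rps12 reaching past the printed window. The printed starts of Rpl10, Rplp0, Rpl36a and Rpl10a do not carry one. No match means only that these letters are absent from this window of this annotated start, and no library here measured where transcription began.

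Depth, read from the step between low values, was about 1716490 to 6040040 reads per library with a median of 3493940. Of the members, 78 averaged at least 5 RPM (reads scaled by the authors to a common library size) over the 26 libraries. Low values of all lines were whole reads in 85.1 to 92.0% of cases, but values of the members were whole within 0.1 read in only 16.7 to 38.0% per library, where 20% would be whole for evenly spread fractions. Annotated pseudogenes are named for 59 members, so single members are uncertain to the extent that reads were divided with those copies, and the sources used here do not say how. In addition, 21 members overlap a gene on the other strand and 5 overlap a gene on their own strand, and strand use in counting is not given. Defining markers of the retina, the intestine and the B lineage followed the labels. Summed over the list, photoreceptor markers were at 4096 to 35268 RPM in the retina and at most 95.3 RPM elsewhere, intestinal markers at 3830 to 6473 RPM in the intestine, and B-cell markers at 1934 to 10128 RPM in the B lineage. Intestinal markers, some shared with other epithelia and with stem cells, also reached 783 to 885 RPM in d2 PGCLC. The plasmablast and PGCLC lists were less specific. Plasmablast markers summed to 15143 to 15809 RPM in PB, but to 1996 to 2178 RPM in B cells and 253 to 258 RPM in blasts. The PGCLC list summed to 779 to 823 RPM in d2 PGCLC, 494 to 504 RPM in P0 precursors and 517 RPM in P4 CD73- cells.

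Ribosomal protein mRNA took up between 4.98% and 24.3% of all RPM, depending on the group. The share was highest in blasts (24.3% ± 2.27, SD, n = 2) and lowest in P10 photoreceptor precursors (4.98% ± 0.0372, SD, n = 2). B cells (21.3% ± 0.523), IE P14 (21.1% ± 1.24) and prePB (21.0% ± 1.43) followed, below both blast libraries, and in that order the libraries of neighbours overlapped. d2 PGCLC (18.4% ± 0.465) and IE P3 (17.8% ± 0.737) also overlapped. Below them lay PB (15.1% ± 1.34), then IE E16.5 (13.2% ± 1.02) and P0 precursors (11.8% ± 1.20), of which the last pair overlapped. The remaining retinal groups lay below every other library, at 8.27% ± 0.321 (P4 CD73-), 7.62% ± 0.392 (P4 CD73+), 6.69% ± 0.420 (P6) and 4.98% (P10), with no overlap between neighbours. All SDs are over 2 libraries.

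**Figure D1:**
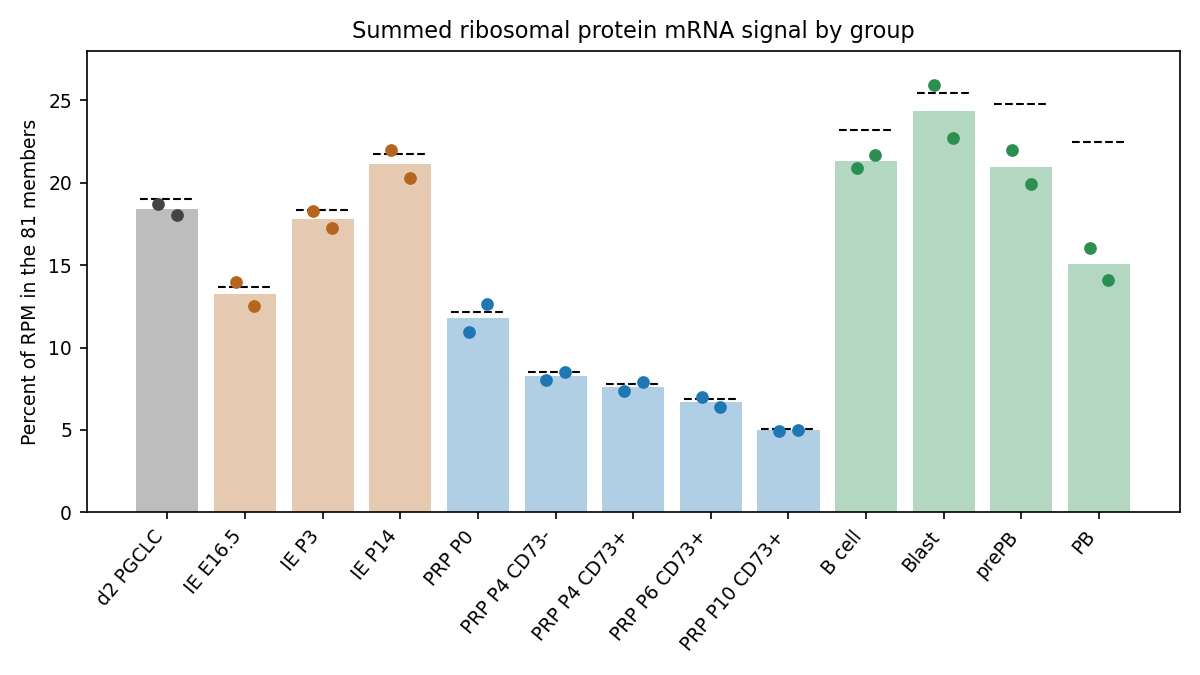
Percent of all RPM held by the 81 members (vertical axis) in 13 groups (horizontal axis); bars are means, points are the 2 libraries of a group, and dashed lines give the group mean as a percent of the RPM in the 25146 lines used. The share falls through the 5 retinal groups from 11.8% to 4.98%, and the dashed line of PB stands at 22.5%.

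The order within the B lineage depended on the denominator. The lines used here held a median of 967888 RPM per library but only 650799 RPM in the lowest PB library. Lines with missing or moved values, among them immunoglobulin genes, were not used. As a percent of the lines used, PB reached 22.5% ± 1.10, prePB 24.8% ± 0.923, B cells 23.2% ± 0.519 and blasts 25.4% ± 2.28. By that measure d2 PGCLC stood at 19.0% and P10 precursors at 5.09%. The small subunit held 0.820 times as much RPM as the large subunit in B cells and 0.714 times as much in P6 precursors, the highest and the lowest group means of that ratio.

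Single members followed the sum closely. Over the 26 libraries, the log2 level of a member and that of the rest of the family had a median Pearson r of 0.957 (0.70 to 0.99 for the 78 members with a mean of at least 5 RPM), and 64 of the 78 exceeded 0.9. These points share libraries, depth and, for many members, reads, so r is given as a description. In 75 of the 78 the lowest group mean was that of P10 precursors. The highest was in blasts for 41 members, in B cells for 14, in d2 PGCLC for 12, in IE P14 for 9 and in prePB for 2. Between its lowest and its highest group, the median member differed by 2.45 on the log2(RPM + 1) scale.

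**Figure D2:**
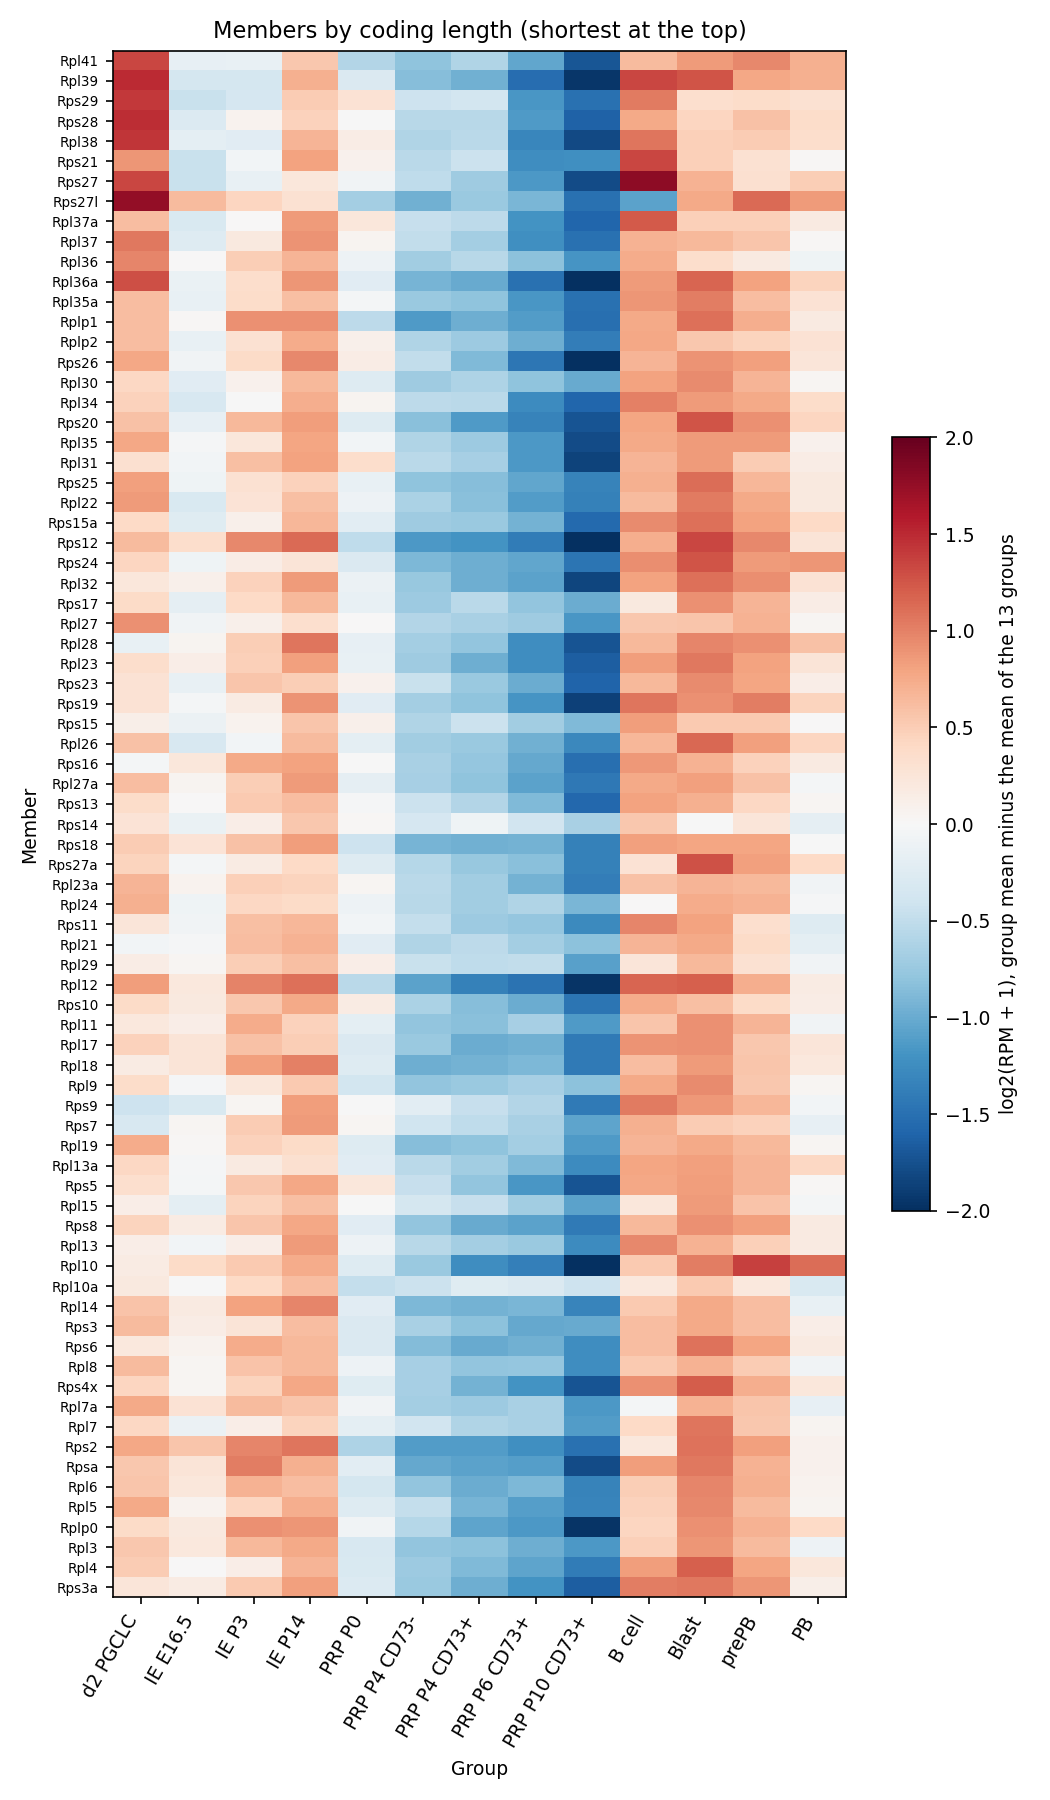
Level of the members with a mean of at least 5 RPM (rows, ordered by coding length, shortest at the top, with Rps3a last because its length was not matched) in 13 groups (columns), as the group mean of log2(RPM + 1) minus the mean of the 13 groups; n = 2 libraries per group, red is above and blue below the member's own mean. The P10 column is the lowest for nearly every member, and the row of Rpl10a is nearly flat. Several of the shortest members, such as Rpl41, Rpl39 and Rps29, are highest in d2 PGCLC, whereas Rps21 and Rps27 are highest in B cells.

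In the retina, ribosomal protein mRNA fell as photoreceptor precursors aged. From P0 to P4 CD73- cells 62 of 79 members tested fell and none rose, while 9.28% of all genes tested fell and 12.6% rose. The members' median log2 fold change was -0.54 and that of all genes was 0.06. Calls are at an adjusted p under 0.05 by limma on log2(RPM + 1), with Benjamini-Hochberg adjustment over all genes tested. The members with the largest falls were Rpl31, of the large subunit, Rpsa, a small-subunit protein first described as a laminin receptor, and Rps10, of the small subunit. Rpl31 was at 1313 and 2018 RPM at P0 and at 916 and 841 RPM in P4 CD73- cells, with no overlap (log2 fold change -0.89, SE 0.16, adjusted p = 0.0012 by limma). Rpsa was at 1118 and 1143 RPM at P0 and at 652 and 633 RPM at P4 (-0.81, SE 0.12, adjusted p = 2.0e-04 by limma). Both replicates at P4 lay below both at P0 for 77 of the 79 members. The share of all genes separated in this way was not counted, so the 77 is a description. The sort changed with age here, and the summed RPM of 20 proliferation genes moved with the family, from 3672 to 4376 RPM at P0 to 558 to 1118 RPM in P4 CD73- cells. Its part in the result was not tested. The count was 23 without P0 replicate 2 and 18 without P4 CD73- replicate 1, and 35 with quantile normalization.

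At P4, 4 of 79 members were called between CD73+ and CD73- cells. CD73 is a surface enzyme that marks rod precursors. Only Rpl3l, which reached 5 RPM in CD73+ libraries alone, rose among the 79 members, where 6.41% of all genes rose. Another 3 members fell (Rpl10, Rplp0 and Rpl5), where 4.93% of all genes fell. Rpl10, which joins the large subunit late in its assembly, was at 1794 and 1954 RPM in CD73- and at 1292 and 1381 RPM in CD73+ cells (-0.49, SE 0.13, adjusted p = 0.021 by limma). Rplp0, the anchor of the P-stalk where elongation factors dock, fell by 0.49 on the log2 scale, and Rpl5, a partner of 5S rRNA and of MDM2, fell by 0.45. The calls rested on single libraries. Without CD73- replicate 1 or CD73+ replicate 2 a single member was called, and without CD73- replicate 2 or CD73+ replicate 1 none was. With no filter on low values none was either. T, NK and myeloid markers summed to 63.5 to 129 RPM in CD73- and to 18.1 to 24.98 RPM in CD73+ cells, where 2 of the 4 tested (Tyrobp and Csf1r) were lower in CD73+ cells, and erythroid markers to 27.4 to 41.1 RPM and to 0.926 to 18.5 RPM. Their part in the result was not tested.

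From P4 to P6, 6 of 79 CD73+ members fell and none rose (1.95% of all genes fell and 2.32% rose). The lowest values belonged to Rps21, Rps29 and Rpl38, proteins of short coding sequence. Rpl38, a large-subunit protein whose loss in mice alters the axial skeleton, was at 376 and 363 RPM at P4 and at 234 and 203 RPM at P6 (-0.76, SE 0.13, adjusted p = 0.0039 by limma). Rps29 was at 772 and 696 RPM at P4 and at 431 and 413 RPM at P6 (-0.79, SE 0.16, adjusted p = 0.011 by limma). In neither did the ages overlap. The 20 shortest members had a median of -0.47 and the 20 longest one of -0.08. The count was 2 without either P4 CD73+ replicate, 0 without P6 replicate 2 and 10 without either P0 replicate, which enters only through the shared estimate of spread.

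From P6 to P10 the fall was again broad. Of 79 members, 43 fell and none rose, while 14.2% of all genes fell and 6.37% rose. The median was -0.44 for the members and -0.13 for all genes. Rpl10 was at 1234 and 1193 RPM at P6 and at 710 and 641 RPM at P10 (-0.85, SE 0.13, adjusted p = 2.5e-04 by limma). Rps9, of the small subunit, fell by 0.83. In neither did the ages overlap. All 4 members in use as reference genes fell in this step, Rplp0 by 0.82, Rpl32 by 0.76, Rps18 by 0.41 and Rpl13a by 0.38. The count was 15 with median-of-ratios scaling. Leaving out P6 replicate 1 gave 12, P6 replicate 2 gave 26, P10 replicate 1 gave 19 and P10 replicate 2 gave 15. Photoreceptor markers rose over the same age, from 14022 to 15298 RPM at P6 to 31257 to 35268 RPM at P10 in sum, and RPM is a share of a fixed total. Of 20 proliferation genes 14 fell in this step, their sum going from 390 to 418 RPM at P6 to 271 to 275 RPM at P10. Of 8 tested markers of other retinal cells 4 fell, among them Sox2 by 2.06 and Pax6 by 2.04, and 1 rose, their listed sum going from 1391 to 1409 RPM to 995 to 1201 RPM. The part of these in the result was not tested. In bulk samples such as these, fewer cells of a kind and less RNA per cell cannot be told apart.

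Rpl10a and Rps14 had the smallest ranges over the groups, and in the retina their levels were as follows. Rpl10a, the protein of the L1 stalk near the exit site for tRNA, was at 1745 and 1715 RPM at P0, 1745 and 1823 RPM in P4 CD73- cells, 2105 and 1974 RPM in P4 CD73+ cells, 1979 and 1969 RPM at P6 and 1874 and 1741 RPM at P10. It stayed within that range while the summed share dropped from 11.8% to 4.98%. Its values were whole reads in only 7.69% of libraries, 3 annotated pseudogenes are named for it and it overlaps CT025652.2 on the other strand, and the part of these was not tested. Rps14, of the small subunit, was at 1882 and 2209 RPM at P0 and still at 1188 and 1374 RPM at P10. No annotated pseudogene is named for Rps14 and its values were whole in 84.6% of libraries. Rpl21, next in order of range, lay between 1054 and 3312 RPM in all 26 libraries. These 3 were singled out for their small range over the groups, so their levels are a description.

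**Figure D3:**
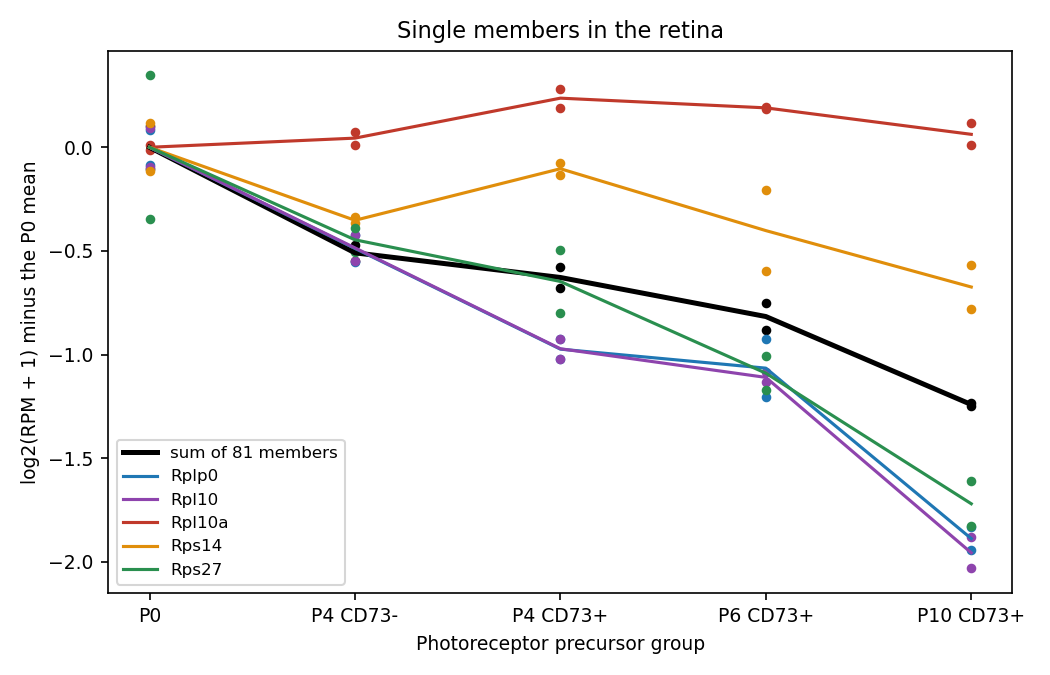
Level of the summed family and of 5 members through the 5 retinal groups (horizontal axis), as log2(RPM + 1) minus the P0 mean (vertical axis); lines join group means and points are the 2 libraries of each group. The sum of the 81 members and Rplp0, Rpl10 and Rps27 decline, and Rpl10a stays near its P0 level.

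In the intestine the family moved the other way. From E16.5 to P3, 45 of 78 members rose and none fell, while 21.3% of all genes rose and 15.8% fell. The median was 0.40 for the members and 0.11 for all genes. The P-stalk, the arm of the large subunit that recruits elongation factors, was called in all 4 of its genes. Rplp1 was at 2171 and 1350 RPM at E16.5 and at 3314 and 3032 RPM at P3 (0.89, SE 0.16, adjusted p = 1.5e-04 by limma). Rpl12, which forms the base of the stalk, was at 2064 and 2068 RPM at E16.5 and at 3667 and 3487 RPM at P3 (0.79, SE 0.13, adjusted p = 4.4e-05 by limma). Rps20, of the small-subunit head, rose by 0.81. Both partners of 5S rRNA rose, Rpl11 by 0.62 and Rpl5 by 0.37. In Rplp1 and Rpl12 no E16.5 library reached a P3 library. The E16.5 cells were sorted on GFP as well as EPCAM and the P3 cells were not, and the sort and the age cannot be told apart. Erythroid markers summed to 110 to 248 RPM at E16.5 and to 6.3 to 14 RPM at P3, and proliferation genes to 1309 to 1335 RPM and 2898 to 3355 RPM. Their part in the result was not tested. The count was 22 with median-of-ratios scaling, 14 without P3 replicate 1 and 25 without P3 replicate 2.

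From P3 to P14 a further 20 of 78 members rose and none fell, while 3.67% of all genes rose and 4.99% fell. The median was 0.24 for the members and -0.08 for all genes. The leading members were small proteins. Rpl39, which lines the exit tunnel of the ribosome, was at 234 and 179 RPM at P3 and at 479 and 382 RPM at P14 (1.06, SE 0.17, adjusted p = 1.5e-04 by limma). Rpl38 was at 489 and 429 RPM at P3 and at 837 and 883 RPM at P14 (0.91, SE 0.16, adjusted p = 7.0e-04 by limma). Rps21 rose by 0.86. The ages did not overlap in Rpl38 or Rpl39. The 20 shortest members had a median of 0.56 and the 20 longest one of 0.19. Relative to the family (each library scaled to the members' sum) 11 members were higher and 2, Rpsa and Rpl11, were lower. The share of all genes called in that scaled fit is not given, so these 2 numbers are a description. The count rested on single libraries, at 1 without P3 replicate 2, 6 without P3 replicate 1 and 9 without P14 replicate 1. It was 0 with no filter on low values and 10 in one fit of all 26 libraries.

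The 2 tissues differed in how the family changed after birth. The change from P3 to P14 in the intestine, minus that from P4 to P10 in CD73+ precursors, passed the test in 60 of 79 members, and in 18.1% of 14131 genes. In 57 of the 60 the estimates had opposite signs, up in the intestine and down in the retina. The exceptions were Rplp0, Rpl23a and Rps23, which were lower in the retina and changed by less than 0.1 in the intestine. The median difference was 0.84 for the members and 0.03 for all genes. Rpl38 changed by 0.91 in the intestine and by -1.26 in the retina, a difference of 2.17 (SE 0.38, adjusted p = 3.0e-04 by limma). Rps14 differed by 0.97 (adjusted p = 0.0046 by limma) and Rpl10a by 0.40, which missed the threshold (adjusted p = 0.083 by limma). The ages compared are not the same in the 2 tissues.

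**Figure D4:**
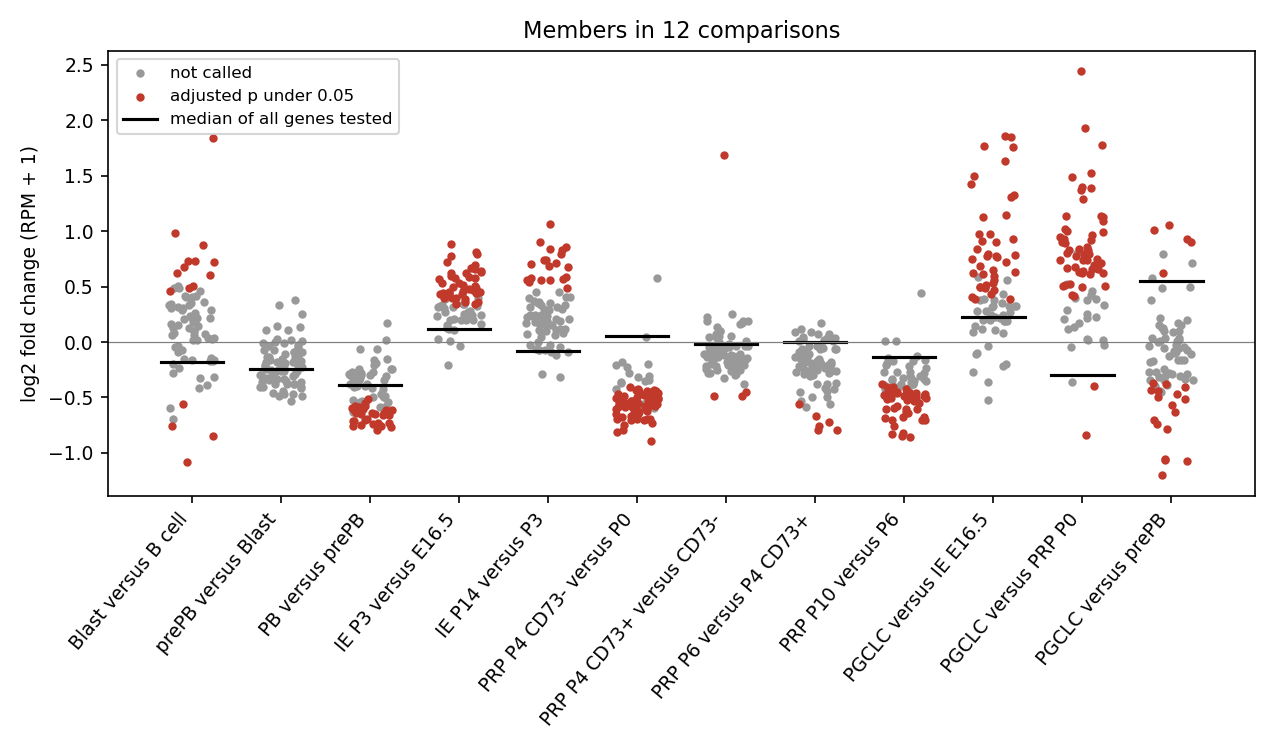
Log2 fold change of every member tested (points, 78 or 79 per comparison) in 12 comparisons (horizontal axis), on the log2(RPM + 1) scale; red points have an adjusted p under 0.05 by limma and black bars give the median of all genes tested. Most members lie above the bar in both intestinal steps and below it from P0 to P4 and from P6 to P10 in the retina.

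In the B lineage few members changed between B cells and blasts, in both directions. From B cells to blasts 12 of 78 members rose and 4 fell, where 21.1% of all genes rose and 30.5% fell. The median was 0.17 for the members and -0.18 for all genes. Rps27l, a p53 target and paralog of Rps27, was at 161 and 130 RPM in B cells and at 535 and 500 RPM in blasts (1.84, SE 0.17, adjusted p = 8.4e-07 by limma). Rps27 itself was at 2129 and 2335 RPM in B cells and at 1529 and 721 RPM in blasts (-1.09, SE 0.27, adjusted p = 0.0034 by limma). The groups did not overlap in either paralog, but the size of the fall in Rps27 rested on 1 library. Without blast replicate 2 it was -0.54 (adjusted p = 0.048 by limma), and with no filter on low values the adjusted p was 0.053. Rps27a, made as a fusion with ubiquitin, rose by 0.98 and Rps2 by 0.87. Rps21 fell by 0.85, Rpl37a by 0.76 and Rps14 by 0.56. Without blast replicate 2 the estimates were -0.35 for Rps21 (adjusted p = 0.40 by limma) and -0.41 for Rpl37a (adjusted p = 0.23). Both calls were also lost without either B cell replicate, with median-of-ratios scaling and with no filter on low values. Among the calls, 75% were rises, against 95.8% with median-of-ratios scaling and 42.9% with quantile normalization. The count of 16 calls was 6 without B cell replicate 1 and 9 without B cell replicate 2. T, NK and myeloid markers summed to 477 to 557 RPM in B cells and to 13.1 to 39.4 RPM in blasts, and their part in the result was not tested.

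No member passed the test between blasts and prePB by limma, where 6.33% of all genes rose and 12.6% fell. At an unadjusted p under 0.05 by limma, 1 member was higher and 6 were lower, where 9.72% of all genes were higher and 23.6% lower. The lowest adjusted p was 0.083, and the median was -0.23 for the members and -0.24 for all genes. Without blast replicate 2 the count was 7. Rpl10 was at 5906 and 6968 RPM in blasts, 7366 and 8911 RPM in prePB and 7021 and 6653 RPM in PB, against 4404 and 4659 RPM in B cells, so prePB was its highest group. Relative to the family, Rps27l was higher in prePB than in blasts by 0.59 (SE 0.18, adjusted p = 0.038 by limma), the only member that passed in that fit. The 3 cultured groups were uneven in their shortest members. The 20 shortest held 19.0%, 19.6% and 20.1% of the family's RPM in replicate 1 of blasts, prePB and PB, and 14.6%, 15.4% and 17.0% in replicate 2.

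From prePB to PB, 30 of 78 members fell and none rose, while 24.7% of all genes fell and 2.87% rose. The median was -0.52 for the members and -0.39 for all genes. Rps18, of the small-subunit head, was at 2853 and 2431 RPM in prePB and at 1855 and 1245 RPM in PB (-0.79, SE 0.21, adjusted p = 0.013 by limma). Rpl35, at the exit tunnel, fell by 0.77 and Rpl14 by 0.76. Rpl11 fell by 0.75 and Rpl5 by 0.58, so both partners of 5S rRNA were among the calls. The calls depended on the scaling. No member was called under quantile normalization (median -0.14), under median-of-ratios scaling (median -0.08) or relative to the family. The count was also 0 without PB replicate 2 and 8 without prePB replicate 1. Plasmablast markers summed to 15143 to 15809 RPM in PB and to 3187 to 3356 RPM in prePB.

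d2 PGCLC were compared with 1 group of each other lineage that was also sorted on a BLIMP1 reporter. These comparisons share the PGCLC libraries, so their values are set side by side. Against IE E16.5, 41 of 78 members were higher and none lower, with 37.3% of all genes higher and 26.0% lower. Against P0 precursors 54 were higher and 2 lower, among them Rps9, with 22.4% of all genes higher and 38.0% lower. Against prePB 5 were higher and 17 lower, with 45.5% of all genes higher and 14.7% lower. The members' medians were 0.45, 0.68 and -0.14, and those of all genes 0.23, -0.30 and 0.55. The median against prePB had the opposite sign with quantile normalization, at 0.024, and 57 members were lower with median-of-ratios scaling. With the same scaling 16 members were higher and 6 lower against IE E16.5. Against IE E16.5 the count was 24 without PGCLC replicate 1. Against prePB it was 12 without PGCLC replicate 1 and 10 without PGCLC replicate 2.

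Within the family, several messages of short coding sequence were higher in both d2 PGCLC libraries than in IE E16.5. Rps29 was at 2667 and 2402 RPM in PGCLC and at 915 and 529 RPM in IE E16.5 (1.86, SE 0.35, adjusted p = 0.0012 by limma). Rps27 was at 1612 and 1646 RPM in PGCLC and at 612 and 374 RPM in IE E16.5 (1.77, SE 0.27, adjusted p = 3.1e-04 by limma). Rpl39 was at 706 and 765 RPM in PGCLC and at 233 and 178 RPM in IE E16.5, and Rpl41, the shortest member, was at 5149 and 5287 RPM against 1337 and 1403 RPM in P0 precursors (1.93, SE 0.18, adjusted p = 1.9e-05 by limma). None of these groups overlapped. Against prePB, Rps29 was higher by 1.05, Rps27 by 1.02 and Rpl38 by 0.93, whereas the log2 fold changes of Rpl10 (-1.20) and Rps9 (-1.07) were negative.

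Across 77 members the log2 fold change between PGCLC and IE E16.5 had a Pearson r of -0.67 with the log2 of coding length, which runs from 75 to 1257 bases. Members are not independent replicates, and this r is a description. The 20 shortest (75 to 369 bases) had a median of 1.05 and the 20 longest (612 to 1257 bases) one of 0.33. They held 22.8% ± 0.0645 (SD, n = 2) of the family's RPM in d2 PGCLC, against group means of 14.6% to 19.3% in the other 12 groups. Length also ran with the change from P4 to P6 in CD73+ cells (r = 0.65), with that from prePB to PB (r = -0.50) and with that from P3 to P14 in the intestine (r = -0.50). The spread of this share between the 2 libraries of a group reached 3.09 percentage points (SD) in blasts, so it also varied within groups, and whether library preparation bears on it was not tested.

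**Figure D5:**
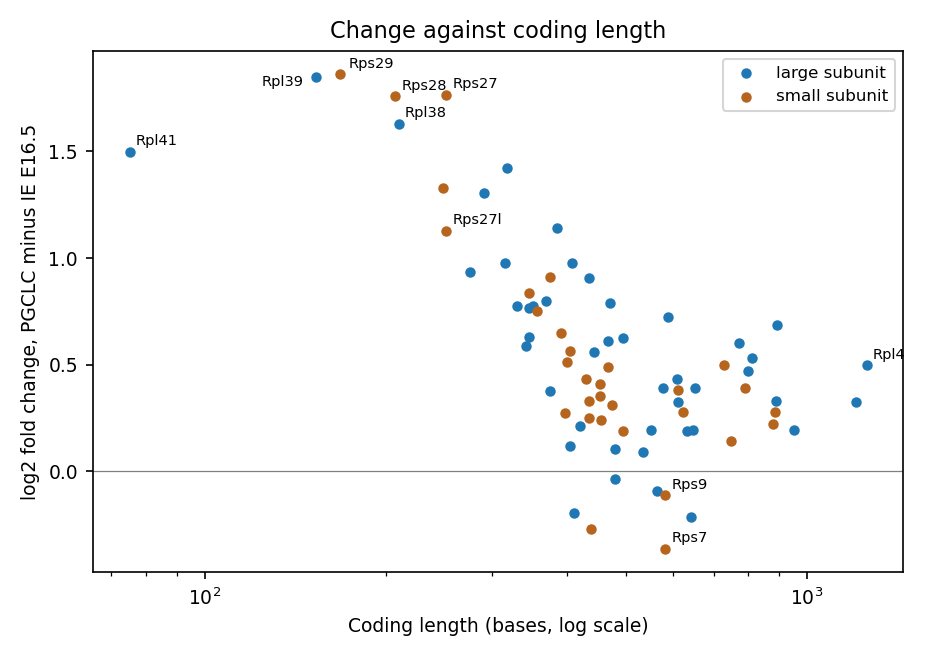
Log2 fold change between d2 PGCLC and IE E16.5 (vertical axis, log2(RPM + 1), n = 2 libraries per group) against coding length (horizontal axis, bases on a log scale) for single members; blue points are large-subunit and brown points small-subunit members. Short members such as Rps29, Rpl39 and Rps27 lie at the top, and Rps7 at the bottom.

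Paralogs with restricted expression showed patterns of their own. Rpl3l, a form of Rpl3 best known from heart and skeletal muscle, was at 0 to 0.583 RPM in every library outside the retina. In the retina it was at 2.49 and 0.932 RPM at P0, 3.39 and 2.44 RPM in P4 CD73- cells, 12.3 and 10.8 RPM in P4 CD73+ cells, 9.52 and 9.67 RPM at P6 and 17.1 and 10.4 RPM at P10. All CD73+ libraries thus exceeded all CD73- and P0 libraries, and the difference at P4 was 1.69 (SE 0.40). Rpl3l reached the 5 RPM needed for testing only in CD73+ libraries. Its call at P4 therefore lends no support of its own, and with no filter on low values it was not called. All of its values were whole reads, and no pseudogene is named for it, but its level was at most 17.1 RPM. Rpl10l and Rpl39l, forms known from testis, stayed at or below 3.46 and 4.80 RPM in all 26 libraries and were not tested.

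Rps27l had the weakest tie to the family among members with a mean of at least 5 RPM (r = 0.70). It was highest in d2 PGCLC, at 1041 and 1032 RPM, and lowest in P10 precursors, at 111 and 105 RPM. Against P0 precursors, at 175 and 206 RPM, it was higher in PGCLC by 2.45 (SE 0.15, adjusted p = 1.3e-06 by limma). Rps27 was highest in B cells, where Rps27l was at 161 and 130 RPM, so the paralogs took different orders over the groups.

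Members in common use as reference genes varied as the family did. Over the 13 group means, Rplp0 ranged by 2.88 on the log2(RPM + 1) scale, Rpl32 by 2.94, Rps18 by 2.18 and Rpl13a by 2.07. Rplp0 was at 547 and 591 RPM in P10 precursors and at 4137 and 4248 RPM in blasts. None of the 4 passed the test between B cells and blasts, and all 4 fell from P6 to P10 in the retina.

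Ribosomal protein genes outside the name rule were near the family. Gnb2l1, which encodes RACK1, the scaffold on the small-subunit head, had an r of 0.98 with the summed family and went from 1755 ± 1.43 RPM at P0 to 720 ± 54.0 RPM at P10 (SD, n = 2). Fau, the ubiquitin-like fusion that gives RPS30, had an r of 0.91, and Rpl7l1, a paralog of Rpl7, one of 0.55. From P0 to P4 CD73- cells Fau fell by 0.69 and Gnb2l1 by 0.43, and 3 of the 6 tested were called. Members linked to Diamond-Blackfan anaemia, an inherited failure of red cell production, fell in 8 of 9 genes in the same step, in which 62 of 79 members and 9.28% of all genes fell.

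Other genes of the translation apparatus were counted beside the family. Of 26 further genes with TOP mRNAs, such as elongation factors and Pabpc1, 13 rose and 5 fell from B cells to blasts, 9 fell from P0 to P4 CD73- cells and 12 fell from P6 to P10. Of all genes 21.1% rose and 30.5% fell in the first of these steps, 9.28% fell in the second and 14.2% in the last. Of 58 ribosome biogenesis genes, which make and assemble rRNA, 51 rose and none fell from B cells to blasts, with a median of 1.14 against 0.17 for the members. Pno1, a factor of small-subunit assembly, rose by 2.72 and Npm1, nucleophosmin, by 2.00. From prePB to PB 54 of the 58 fell, with a median of -1.20, where 24.7% of all genes fell. In the retina 7 of the 58 fell from P0 to P4 CD73- cells (median -0.20), where 9.28% of all genes and 62 of 79 members fell. Mitochondrial ribosomal protein genes, a separate set of 74 tested, rose in 43 and fell in 1 from B cells to blasts, and from P0 to P4 CD73- cells 1 rose and 3 fell. From E16.5 to P3 in the intestine 7 of 75 rose and 6 fell (median -0.12), where 21.3% of all genes rose and 15.8% fell and the cytosolic members' median was 0.40. Differences between these lists were not tested.

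Genes of MYC and mTORC1 control changed in both directions. From B cells to blasts 4 of the 15 tested rose and 3 fell, where 21.1% of all genes rose and 30.5% fell. From prePB to PB none rose and 5 fell, where 2.87% of all genes rose and 24.7% fell. From E16.5 to P3 in the intestine 3 of 16 rose and 2 fell, where 21.3% of all genes rose and 15.8% fell. In the retina 3 of 15 rose and none fell from P0 to P4 CD73- cells, where 12.6% of all genes rose and 9.28% fell. Between P4 CD73- and CD73+ cells, 1 rose and 3 fell, where 6.41% of all genes rose and 4.93% fell. Between P6 and P10, 1 rose and 2 fell, where 6.37% of all genes rose and 14.2% fell. Myc rose by 2.26 from E16.5 to P3 in the intestine and fell by 1.55 from prePB to PB. Ddit4, an inhibitor of mTORC1, rose by 3.03 from E16.5 to P3, where Mycn fell by 0.95. From P0 to P4 CD73- cells Ddit4 rose by 0.80, Mtor by 0.55 and Mycn by 0.49. Max, the partner of MYC, rose by 0.65 from P6 to P10. Mycn fell by 1.13 from P6 to P10 in the retina, and Eif4ebp1, which restrains the initiation factor eIF4E, by 1.31.

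Of 14052 gene lines outside the family, the 10 with levels most like the summed family (Pearson r of 0.975 to 0.984 over 26 libraries) were Gm11425, Gnb2l1, Gm6646, Gm7698, Gm7671, Gm5642, Gm14958, LOC100862223, Gm5908 and Gm14059. Gnb2l1 was the only one with a gene name of its own. Gm6646, Gm7698, Gm7671, Gm5642, Gm14958 and LOC100862223 all had a lowest value of 25.2 RPM and a highest between 292.7 and 293.0 RPM. How reads shared between such lines were counted is not given.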

How the data were processed

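For 26 libraries the authors deposited a signal per gene in RPM, made with cutadapt 1.11, TopHat 1.4.1, Bowtie 1.0.1 and Cufflinks 2.2.0 on mm10, per the submitters' processing notes, which do not give the role of each tool. Of 26310 lines, 1164 (1072 genes and 92 spike-ins) had missing or moved values and were not used. Every column was mapped to a sample by its name. Members and gene lists were chosen with earlier results of these data known. The share is the members' summed RPM as a percent of all RPM. Tests were limma 3.58.1 (R 4.3.3) with a trend on log2(RPM + 1), two-sided, within the lineages compared, on genes that reached 5 RPM in 2 or more libraries of the fit, adjusted by Benjamini-Hochberg over all genes tested. Fold changes on this scale understate those of low genes. Tests were checked on simulated data, in which small changes were mostly not recovered, so a member that was not called may still have changed. Genes named are, per comparison, the 3 members with the largest and the 3 with the smallest change among those called, the 5 with the largest and the 3 with the smallest range over the 13 groups, members of the listed functional sets, and the 10 lines most like the family. Rps14 in blasts, and members just named as exceptions to a count, were named after their values were seen. Replicate numbers were not treated as pairing the samples. Coding lengths are of the principal transcript in GENCODE M21, found for 80 members. Other scalings, pseudocounts and filters are in the closing section. Some genes that the naming rule selects are not reported here and are left out of the plots of single named members.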

Additional observations from a re-analysis of the deposited data

Results flagged for a closer look

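The change with age after birth differed between intestine (P14 minus P3) and retina (P10 minus P4 CD73+) in a test of the difference itself (limma, adjusted over all genes tested). The difference passed in 60 of 79 members, where it passed in 18.1% of all genes. In 57 of the 60 the estimates had opposite signs, up in the intestine and down in the retina. The largest differences were those of Rpl38, 2.17, Rpl39, 2.04, and Rps29, 1.96, on the log2(RPM + 1) scale, and each of these is among the members of shortest coding sequence. Groups of 2 libraries cannot be tested for a library that stands apart.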

How the results depend on the processing

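Counts are of members called, by limma. A pseudocount of 5 RPM kept all 42 named results on their side of the threshold. With no filter on low values the counts were 7 (blasts against B cells), 3 (PB against prePB), 17 (IE P3 against E16.5), 0 (IE P14 against P3), 31 (P4 CD73- against P0), 0 (CD73+ against CD73-), 1 (P6 against P4) and 19 (P10 against P6). Median-of-ratios scaling gave 1 (prePB against blasts), 0 (PB against prePB), 22 (IE P3 against E16.5), 15 (P10 against P6), 22 (PGCLC against IE E16.5) and 57 (PGCLC against prePB). Quantile normalization gave 1 (prePB against blasts), 0 (PB against prePB), 35 (P4 CD73- against P0) and 33 (PGCLC against P0), and turned the median of PGCLC against prePB to 0.024. Scaling to the members' sum, which removes the shared change by construction, gave 1 (prePB against blasts), 0 (PB against prePB), 6 and 13 (the intestinal steps), 2, 1 and 3 (P4 CD73- against P0, CD73+ against CD73-, P10 against P6), 23 and 24 (PGCLC against IE E16.5 and P0) and 23 opposite age changes. One fit of all 26 libraries gave 26 (blasts against B cells), 8 (prePB against blasts), 48 (PB against prePB), 10 (IE P14 against P3) and 1 (P6 against P4). The cause was not tested for the other shifts.

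Leaving out 1 replicate at a time gave 6 to 17 (blasts against B cells), 0 to 7 (prePB against blasts), 0 to 34 (PB against prePB), 14 to 53 and 1 to 23 (the intestinal steps), 18 to 64, 0 to 4, 0 to 10 and 12 to 51 (the retinal steps in order), 24 to 51, 41 to 63 and 10 to 26 (PGCLC against IE E16.5, P0 and prePB), and 44 to 57 opposite age changes. A group of 1 library was then assumed to vary like the others. The named results stayed on their side in 302 of 350 such fits. With the replicate number as a block all 42 named results kept their side and no count moved by over 1.5 times. Deviations of same-numbered libraries correlated at -0.07 to 0.28. They passed 0.1 in P4 CD73- with CD73+ cells (0.28), blasts with prePB (0.20) and prePB with PB (0.13) but not in every pair, and no label ties the numbers, so they were not treated as a pairing. As a percent of the lines used the shares were 19.0% (PGCLC), 5.09% (P10), 23.2% (B cells), 24.8% (prePB) and 22.5% (PB). A denominator that leaves out every immunoglobulin and mitochondrial line was not computed.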
